A study of Mus musculus with 24 samples.

Results

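The tricarboxylic acid (TCA) cycle enzymes described here are 9 genes, Cs, Idh3a, Idh3b, Idh3g, Ogdh, Dlst, Suclg1, Fh1 and Mdh2. They were chosen by name and each was found once, by its symbol, in both deposited count tables, so they are 9 of the 38013 genes that the tables share (39017 genes in the chow table and 38483 in the high-fat diet table). RNA was sequenced from inguinal subcutaneous white fat of C57BL/6J mice, all carrying a transgenic γ1 subunit of AMPK, the AMP-activated energy-sensing kinase. In WT-Tg mice this subunit was wild type, and in D316A-Tg mice it was the D316A form, a gain-of-function mutant. The chow groups were 16 weeks old and the groups on a 45% high-fat diet (HFD) were 24 weeks old. Each of these 4 groups had 6 libraries. No group without a transgene was included, the promoter that drives the transgene is not given in the sources used here, and no label states that each library is a different mouse, so the p-values speak of spread between libraries that may be technical.

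The TCA cycle runs in the mitochondrial matrix, where it oxidises the acetyl groups of sugars, fats and amino acids to carbon dioxide and hands the electrons to the respiratory chain. Citrate synthase (Cs) opens it by joining acetyl-CoA to oxaloacetate. NAD-dependent isocitrate dehydrogenase is built from a catalytic subunit (Idh3a) paired with the subunits Idh3b and Idh3g, and the 2-oxoglutarate dehydrogenase complex contains the E1 subunit Ogdh and the E2 subunit Dlst. Succinyl-CoA synthetase has a common alpha subunit (Suclg1), and fumarase (Fh1) and mitochondrial malate dehydrogenase (Mdh2) close the cycle. In white fat the cycle also supplies citrate, which leaves the mitochondrion to be turned into fatty acids, while in brown and beige fat it feeds heat production.

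Proximal promoters of 8 of the 9 genes, 250 bases before to 50 after the start site, were matched by symbol in a RefSeq table for GRCm38.p6. 3 of them are shown because they belong to genes in different steps of the cycle and differ in the short motifs they hold. Capitals mark the letters GGGCGG, an Sp1-type box, and CCGGAAG, an ETS-type core, on either strand. The Cs window lies at chr10:128337477-128337776 on the plus strand, the Idh3g window at chrX:73786848-73787147 on the minus strand and the Dlst window at chr12:85110583-85110882 on the plus strand, and each is written 5′ to 3′ along its gene.
Cs: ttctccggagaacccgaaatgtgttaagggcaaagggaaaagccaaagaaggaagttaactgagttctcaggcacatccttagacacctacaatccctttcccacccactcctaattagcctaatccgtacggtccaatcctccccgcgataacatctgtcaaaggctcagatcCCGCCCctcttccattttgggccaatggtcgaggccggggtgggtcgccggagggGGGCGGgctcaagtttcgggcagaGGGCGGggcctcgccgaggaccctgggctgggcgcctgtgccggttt
Idh3g: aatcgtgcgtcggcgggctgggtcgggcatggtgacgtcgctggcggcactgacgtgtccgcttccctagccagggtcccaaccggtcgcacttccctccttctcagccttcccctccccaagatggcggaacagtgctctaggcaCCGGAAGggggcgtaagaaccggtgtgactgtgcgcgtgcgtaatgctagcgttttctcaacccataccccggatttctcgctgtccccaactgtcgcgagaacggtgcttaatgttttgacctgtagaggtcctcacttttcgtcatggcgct
Dlst: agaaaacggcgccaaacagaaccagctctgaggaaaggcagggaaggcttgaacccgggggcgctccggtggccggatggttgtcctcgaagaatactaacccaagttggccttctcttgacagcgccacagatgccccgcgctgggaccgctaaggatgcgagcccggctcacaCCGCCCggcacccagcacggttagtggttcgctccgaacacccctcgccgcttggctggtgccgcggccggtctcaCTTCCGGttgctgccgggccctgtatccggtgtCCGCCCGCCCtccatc
The Cs promoter held 3 GC boxes and no ETS core, Idh3g held 1 ETS core and no GC box, and Dlst held 1 ETS core and 3 GC boxes, the last 2 of which share bases. Over the 8 genes, GGGCGG was found for 5 (Cs, Ogdh, Dlst, Fh1 and Mdh2) and in 35.7% of the 32851 windows of the same length in the table. CCGGAAG was found for 3 (Idh3b, Idh3g and Dlst) and in 8.86% of windows. AAGGTCA, the core site of estrogen-related receptors, and CGCATGCG, an NRF1-type box, were each found for Ogdh alone, against 4.72% and 1.87% of all windows. Ogdh has 6 windows and counted if any of them matched, while the percentages are of single windows. Suclg1 held none of these 4 strings. A match is a description of letters only.

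Library totals ran from 13254536 to 22748132 counts, and the libraries differed in markers of other cells. Mature adipocyte markers were abundant in all 24 libraries, with a summed level of 22120 to 88380 CPM (counts scaled to a library of 1e+06 counts). B lymphocyte markers fell into separate ranges: 11 libraries, called lymphocyte-rich here, had a mean log2 CPM of these markers above 3.5, a limit chosen after the values were seen. They were 4 of 6 WT-Tg and 2 of 6 D316A-Tg libraries on chow, and 1 of 6 WT-Tg and 4 of 6 D316A-Tg libraries on HFD. Skeletal muscle markers summed to between 21.3 and 26320 CPM. No adipocyte, muscle or lymphocyte marker was at 0 in every library of a group. Fewer cells of a type and less RNA per cell cannot be told apart in whole tissue.

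All 9 enzyme mRNAs were well expressed, and their order per length was alike in both chow groups. Length here is that of all annotated exons of a gene together, not of the expressed transcript. It was 2701 bases for Idh3g and 9559 for Dlst, so the order between genes depends on the annotation. Mean levels in WT-Tg on chow, in CPM per kilobase of exon, were 104 for Cs, 100.2 for Mdh2, 89.3 for Idh3g, 81.6 for Idh3b, 80.9 for Ogdh, 52.6 for Idh3a, 47.1 for Fh1, 37.7 for Suclg1 and 28.6 for Dlst (n = 6). Of the 8 gaps between neighbours in that order, only that between Ogdh and Idh3a was larger than the larger SD of the pair. D316A-Tg on chow had the same order at higher levels, from 179 for Cs to 47.8 CPM per kilobase for Dlst. On HFD Idh3a stood above both partner subunits, Idh3b and Idh3g. It was at 104 CPM per kilobase in WT-Tg, where 5 of the 8 gaps exceeded the larger SD, and at 100.2 in D316A-Tg, where none did. The summed CPM of the 9 genes was 2796 ± 751 in WT-Tg fat and 4962 ± 1043 in D316A-Tg on chow, and 3136 ± 417 in WT-Tg fat and 3404 ± 1126 in D316A-Tg on HFD (SD, n = 6 each).

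**Figure D1:**
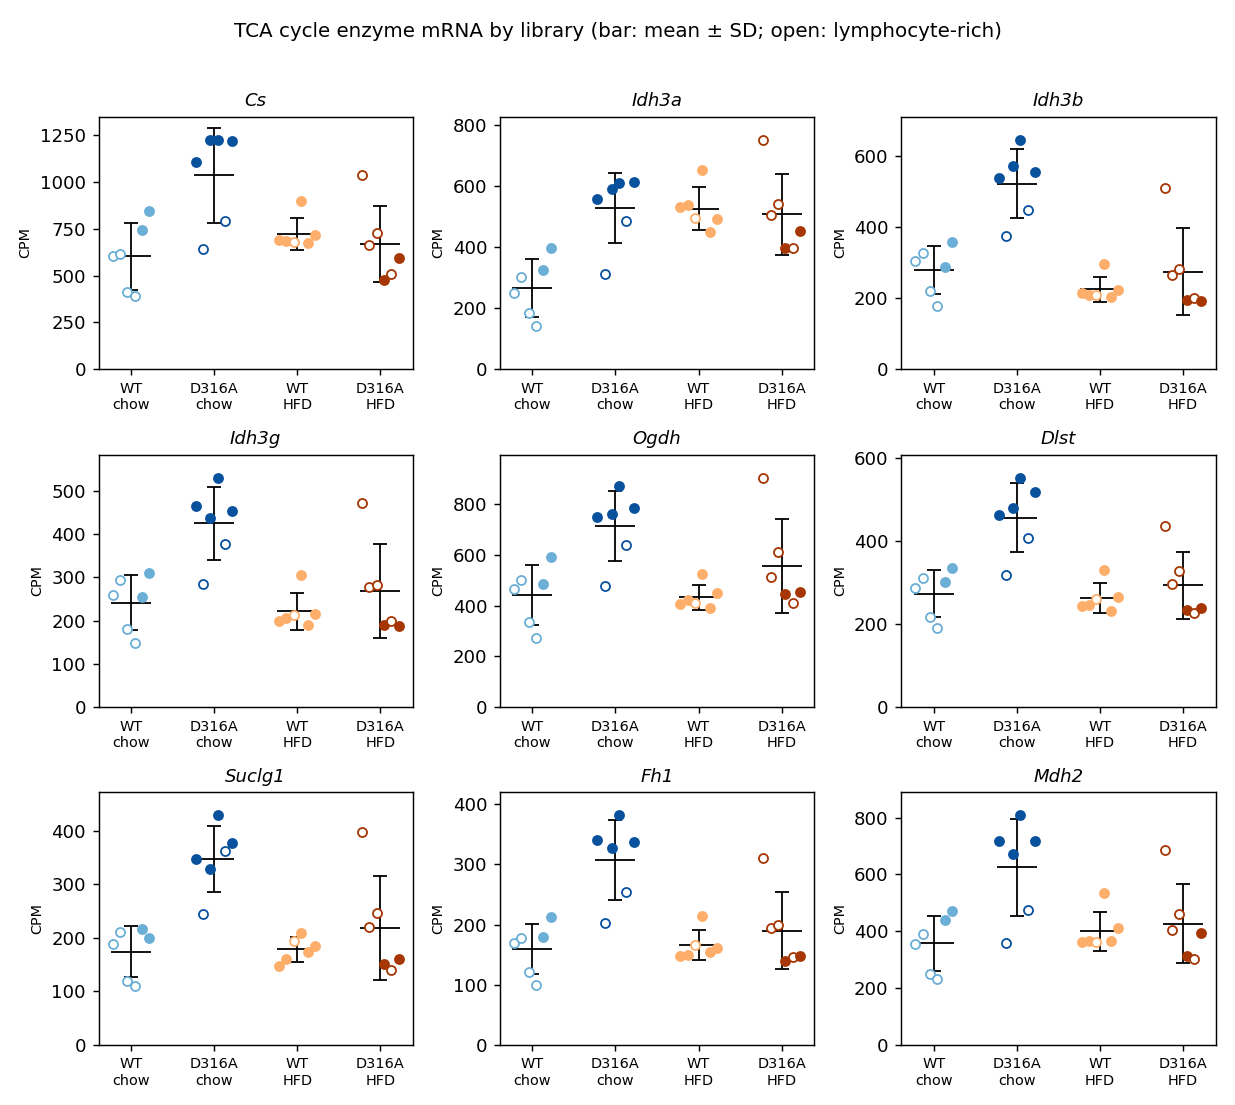
CPM of each of the 9 enzymes (y axis, from 0) in every library of the 4 groups (x axis). Points are libraries, open where lymphocyte-rich, and bars give the mean ± SD of 6 libraries. On chow the D316A-Tg points sit above most WT-Tg points for each gene, and on HFD 1 D316A-Tg library, number 7, tops its group.

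On chow, the enzymes were higher in D316A-Tg than in WT-Tg fat. 6 of the 9 (Idh3a, Idh3b, Idh3g, Dlst, Suclg1 and Fh1) passed the test, all upward and by 1.67- to 2.00-fold, and the other 3 (Cs, Ogdh and Mdh2) had fitted folds of 1.61 to 1.75 that missed it. Calls are at an adjusted p below 0.05 by edgeR's quasi-likelihood test with Benjamini-Hochberg adjustment over all 15249 genes tested, of which 5.28% were called higher and 3.24% lower. The median log2 difference of the 9 genes was 0.82, against -0.07 over all genes tested, and the unadjusted p of all 9 was below 0.05, as it was for 4553 of all genes.

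Suclg1 (ENSMUSG00000052738, chr6:73248382-73276911), the alpha subunit of succinyl-CoA synthetase, ranged from 109 through a median of 194 to 217 CPM in WT-Tg fat and from 243.5 through 354 to 429 CPM in D316A-Tg on chow. Every D316A-Tg library lay above every WT-Tg library. The log2 difference was 1.00 ± 0.21 (SE), with an edgeR adjusted p of 0.0220. Idh3b (ENSMUSG00000027406, chr2:130279309-130284547), a partner subunit of isocitrate dehydrogenase, ranged from 178 through 297 to 358 CPM in WT-Tg fat and from 376 through 548 to 647 CPM in D316A-Tg. Its groups did not overlap either, and its log2 difference was 0.90 ± 0.19, with an edgeR adjusted p of 0.0234. Such a lack of overlap, with D316A-Tg above, was found for 2 of the 9 genes and for 2.26% of 15217 genes.

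The catalytic subunit Idh3a (ENSMUSG00000032279, chr9:54586334-54604661) ranged from 140.1 through 276 to 398 CPM in WT-Tg fat and from 313.5 through 574 to 612 CPM in D316A-Tg. Here 5 of 6 D316A-Tg libraries exceeded the highest WT-Tg library, and D316A-Tg library 8 did not. The log2 difference was 0.98 ± 0.26, with an edgeR adjusted p of 0.0407. Idh3g (ENSMUSG00000002010, chrX:73778963-73786897), the other partner subunit, ranged from 148 through 257 to 311 CPM in WT-Tg fat and from 286 through 446 to 531.5 CPM in D316A-Tg. The same library was again the low one, and the log2 difference was 0.82 ± 0.21 (edgeR adjusted p = 0.0371).

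For 2-oxoglutarate dehydrogenase, Dlst (ENSMUSG00000004789, chr12:85110833-85134845) ranged from 191 through 293 to 335 CPM in WT-Tg fat and from 319 through 472 to 553.5 CPM in D316A-Tg, a log2 difference of 0.74 ± 0.18 (edgeR adjusted p = 0.0338). Ogdh (ENSMUSG00000020456, chr11:6291633-6356642) ranged from 270.0 through 475 to 590.3 CPM in WT-Tg fat and from 476 through 754.5 to 870.3 CPM in D316A-Tg, and its log2 difference of 0.69 ± 0.21 missed the threshold (edgeR adjusted p = 0.0605). In both genes 5 of 6 D316A-Tg libraries exceeded all WT-Tg libraries.

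Fumarase, Fh1 (ENSMUSG00000026526, chr1:175600374-175625635), ranged from 98.7 through 173 to 212 CPM in WT-Tg fat and from 202 through 332 to 382 CPM in D316A-Tg, with a log2 difference of 0.94 ± 0.21 (edgeR adjusted p = 0.0263). Mdh2 (ENSMUSG00000019179, chr5:135778480-135790398), which regenerates oxaloacetate, ranged from 232 through 373 to 473 CPM and from 359 through 694 to 808.5 CPM, with a log2 difference of 0.81 ± 0.24 (edgeR adjusted p = 0.0579). Cs (ENSMUSG00000005683, chr10:128337734-128362479), the first enzyme, ranged from 391 through 611 to 848 CPM and from 639.7 through 1164 to 1226 CPM. It had the fewest D316A-Tg libraries above all WT-Tg libraries, 4 of 6, and a log2 difference of 0.78 ± 0.24 (edgeR adjusted p = 0.0636).

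**Figure D2:**
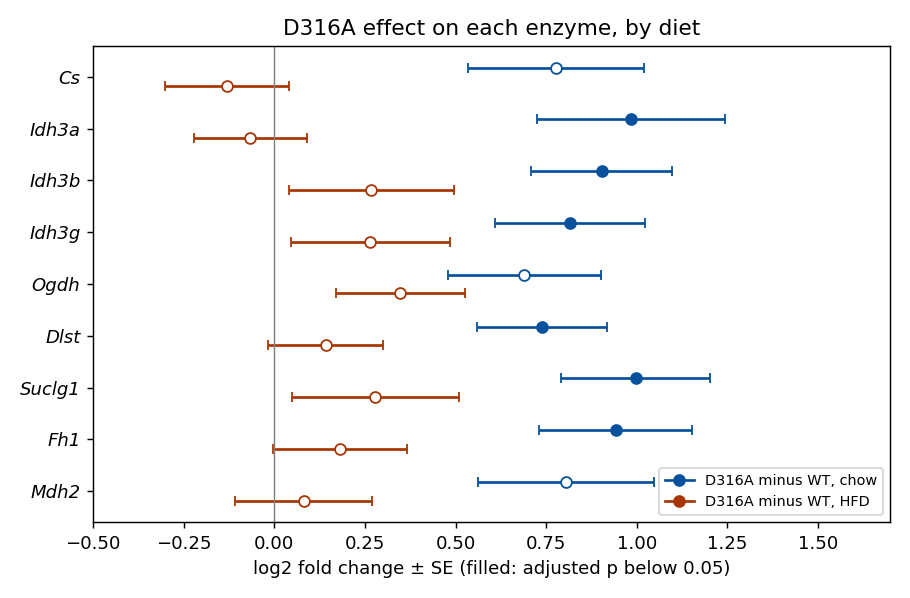
Fitted log2 difference, D316A-Tg minus WT-Tg, of each enzyme (x axis, with SE bars) on chow (blue) and on HFD (brown), filled where the adjusted p was below 0.05. On chow all 9 lie between 0.69 and 1.00 and 6 are filled, and on HFD they lie between -0.13 and 0.35 and none is.

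Cell markers were compared between the chow groups in the same fit. Mature adipocyte markers had a median sum of 29990 CPM in WT-Tg fat and 77240 CPM in D316A-Tg, with 0 of 12 markers called, 3 at an unadjusted p below 0.05 by edgeR and a median log2 difference of 0.67. Brown and beige markers summed to 112.5 to 777.8 CPM in WT-Tg fat and 779.8 to 1634 CPM in D316A-Tg, with 3 of 8 called higher, and muscle markers to 21.3 to 13220 and 24.5 to 679.5 CPM, with 0 of 15 tested called and 12 at an unadjusted p below 0.05. B lymphocyte markers summed to 3.99 to 1999 CPM in WT-Tg fat and 2.44 to 1472 CPM in D316A-Tg, with 0 of 10 called and 0 at an unadjusted p below 0.05. The part of the brown and beige markers in the enzyme differences was not tested. Among the libraries that were not lymphocyte-rich, the 2 WT-Tg libraries had an enzyme sum of 3234 and 3726 CPM and the 4 D316A-Tg libraries one of 5286 to 6057 CPM. There, all 9 enzymes were higher in every D316A-Tg library, as were 22.7% of 15217 genes in this small split, with a median log2 difference of 0.72. These libraries still differed in other markers. Muscle markers summed to 1585 and 13220 CPM in the 2 WT-Tg libraries and 24.9 to 331.6 CPM in the 4 D316A-Tg libraries. Endothelial markers summed to 700 and 748.5 against 274.8 to 492.2 CPM, and adipocyte markers to 59430 and 58440 against 71760 to 88380 CPM. Their part within this split was not tested. Among lymphocyte-rich libraries the enzyme sum was 1758 to 3132 CPM in 4 WT-Tg and 3215 to 4241 CPM in 2 D316A-Tg libraries, with 6 of 9 enzymes not overlapping, against 15.3% of genes, and a median log2 difference of 0.63. With the adipocyte score as a covariate the median log2 difference was 0.55 and 9 enzymes were called, where 19.4% of all genes were called in either direction.

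**Figure D3:**
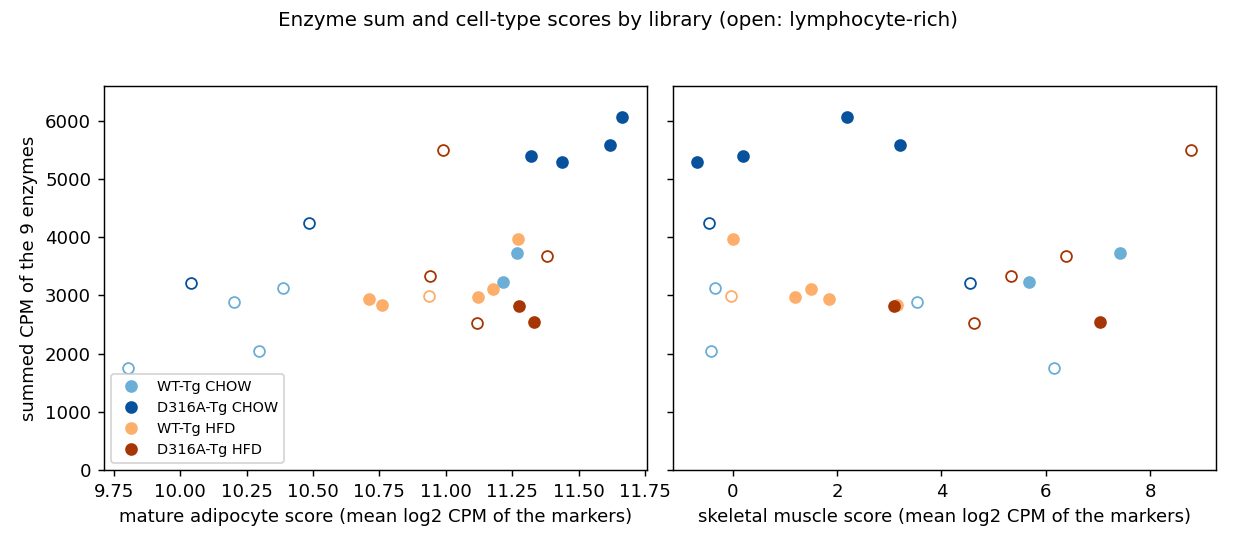
Summed CPM of the 9 enzymes (y axis) against the adipocyte score (left) and the muscle score (right), each the mean log2 CPM of the markers in a library (x axes), with 1 point per library, open where lymphocyte-rich. D316A-Tg chow libraries lie above WT-Tg chow libraries of like adipocyte score, and D316A-Tg HFD library 7, at 5504 CPM, has the highest muscle score.

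The calls on chow leaned on most single libraries. No enzyme was called without WT-Tg library 3 or without D316A-Tg library 7, 9, 10 or 12, fits that called 0.901% to 1.57% of all genes, and 2 were without WT-Tg library 1, 2 or 4 (2.26% to 2.73% of genes). Without WT-Tg library 5, 4 were called (6.71% of genes), and 9 were without WT-Tg library 6 (12.2%) or D316A-Tg library 8 (21.9%), so the enzyme count moved with the share of all genes called, while every fitted log2 difference stayed between 0.58 and 1.14. With the muscle score as a covariate 0 of 9 were called, as were 0.859% of all genes in either direction, at a median log2 difference of 0.86, and with no filter on low counts 3 were (2.13% of genes). DESeq2 (19.6% of genes), voom (71.0%), the B lymphocyte score (24.7%) and a fit of all 24 libraries (22.5%) called 9.

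**Figure D4:**
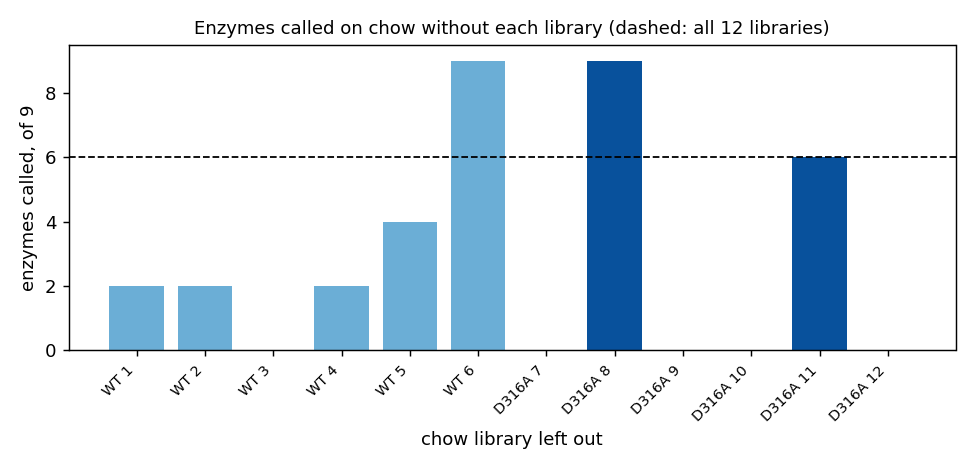
Number of the 9 enzymes called on chow (y axis) when each of the 12 chow libraries is left out (x axis), with the count of 6 from all 12 libraries dashed. The count runs from 0, without each of 5 libraries in turn, to 9, without WT-Tg library 6 or D316A-Tg library 8.

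The neighbours of the 9 enzymes in the cycle were also higher on chow. Of 15 other mitochondrial enzymes of the cycle and its entry complexes, 14 were tested, 10 were called higher and 0 lower, with a median log2 difference of 1.05. Pdha1, the E1 alpha subunit of pyruvate dehydrogenase, rose 2.63-fold, from 528 to 1392 CPM (edgeR adjusted p = 0.0201). Sdhd, a membrane anchor of succinate dehydrogenase, rose 1.98-fold, Pdhx, the E3-binding protein of pyruvate dehydrogenase, 2.07-fold, and Dld, the E3 subunit that both dehydrogenase complexes share, 2.09-fold. The smallest fold was that of Idh2, the NADP-dependent isocitrate dehydrogenase, at 164 and 198 CPM (1.20-fold, edgeR adjusted p = 0.458), a gene singled out after its value was seen.

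Genes that carry substrates in and out moved in part. Of 10 carriers and transaminases, 4 were higher and 0 lower: Slc25a1, the citrate carrier, rose 2.66-fold, Mpc1 and Mpc2, the subunits of the pyruvate carrier, 2.60- and 2.62-fold, and Slc25a20, the carnitine-acylcarnitine carrier, 2.17-fold. Of 6 cytosolic enzymes 2 were higher and 0 lower, Me1 (malic enzyme) at 3.03-fold and Mdh1 (cytosolic malate dehydrogenase) at 1.91-fold. Of 12 general mitochondrial genes 5 were higher and 0 lower, including the chaperonins Hspe1 at 1.64-fold and Hspd1 at 1.67-fold, with a median log2 difference of 0.54.

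On HFD, none of the 9 enzymes was called between D316A-Tg and WT-Tg, in either direction. Of 14649 genes tested, 4.51% were called higher and 3.96% lower. None of the 9 had an unadjusted p below 0.05 by edgeR, and DESeq2 and limma voom also called 0, where they called 19.5% and 29.7% of all genes in either direction. The fitted log2 differences ran from -0.13 ± 0.17 for Cs to 0.35 ± 0.18 (SE) for Ogdh, with a median of 0.18 against 0.01 over all genes.

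The libraries overlapped for every gene. Ogdh, the member nearest the threshold (edgeR adjusted p = 0.202), ranged from 389 through 415 to 525 CPM in WT-Tg fat and from 409 through 484 to 904.5 CPM in D316A-Tg. Cs ranged from 673 through 688 to 897 CPM in WT-Tg fat and from 477 through 628 to 1035 CPM in D316A-Tg, where 4 of 6 libraries lay below the lowest WT-Tg library (edgeR adjusted p = 0.615). Idh3a ranged from 450.3 through 512 to 653 CPM and from 398 through 479.8 to 752 CPM, a log2 difference of -0.07 ± 0.16 (edgeR adjusted p = 0.790). Suclg1, for which 3 of 6 D316A-Tg libraries exceeded all WT-Tg libraries, ranged from 147 through 179 to 209.8 CPM and from 139.5 through 189.6 to 397 CPM (log2 difference 0.28 ± 0.23). In WT-Tg and in D316A-Tg fat, in that order, Idh3b spanned 204.5 to 296 and 193 to 511 CPM, Idh3g 189 to 305 and 188 to 472 CPM, Dlst 232 to 331 and 228 to 436 CPM, Fh1 148 to 215 and 139 to 310.0 CPM, and Mdh2 361 to 534 and 303 to 687 CPM. D316A-Tg reached higher in each case and also reached lower. Their log2 differences were 0.27 for Idh3b and for Idh3g, 0.14 for Dlst, 0.18 for Fh1 and 0.08 for Mdh2.

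D316A-Tg library 7 was the highest of its group for all 9 enzymes. Its enzyme sum was 5504 CPM, while the lowest of its group was 2536 CPM. It also had the most muscle RNA of the 24 libraries, 26320 CPM over the 17 muscle markers, and the highest sum, 1827 CPM, of the brown and beige markers, of which Cox8b, Cox7a1 and Cpt1b are also made by muscle. Without it the median log2 difference of the enzymes was -0.01 and 0 were called, where 4.34% of all genes were called. Muscle markers differed between the HFD groups as a whole, 24.1 to 257.7 CPM in WT-Tg fat and 252 to 26320 CPM in D316A-Tg, with 16 of 16 tested called higher. Their part in the enzyme values was not tested apart from the covariate, under which the median log2 difference was -0.33. In that fit 0.0% of all genes were called. The muscle score ran from -0.03 to 3.15 in WT-Tg fat and from 3.10 to 8.78 in D316A-Tg on HFD. With so little overlap the covariate fit cannot separate muscle from genotype.

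Around the cycle on HFD, 0 of 15 other mitochondrial enzymes were called, 1 had an unadjusted p below 0.05 by edgeR, and the median log2 difference was 0.12. The most abundant of them, Pcx (pyruvate carboxylase), stood at 1130 CPM in WT-Tg fat and 958.9 CPM in D316A-Tg. Among carriers and transaminases 2 were lower, Slc25a10, the dicarboxylate carrier, at 0.583-fold and the citrate carrier Slc25a1 at 0.503-fold, and 2 were higher, the mitochondrial aspartate aminotransferase Got2 at 2.19-fold and the aspartate-glutamate carrier Slc25a12 at 2.96-fold. Of the cytosolic and the general mitochondrial genes none was called by edgeR, with 3 and 1 at an unadjusted p below 0.05.

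Age, base-calling software and count table change with diet, so a change of the D316A effect cannot be assigned to diet alone. The difference between the D316A effects on the diets was tested over all 24 libraries. It was below 0 for all 9 enzymes and passed the test for 1, Idh3a, at -1.04 ± 0.31 on the log2 scale (HFD effect minus chow effect, edgeR adjusted p = 0.0304). Of 16072 genes tested, 6.08% were called with a higher and 6.86% with a lower effect on HFD. The values of the others ran from -0.33 for Ogdh to -0.89 for Cs (edgeR adjusted p of 0.414 and 0.0512), with a median over the 9 of -0.71 against 0.07 over all genes. 6 of the 9 had an unadjusted p below 0.05, as did 5098 of all genes. The Idh3a call was lost in 4 of 24 fits that each left out 1 library, with the edgeR adjusted p reaching 0.0571. Those 4 fits called 8.4% to 9.0% of all genes, against 12.9% in the main fit. The call was also lost with no filter (0.0561), the muscle score (0.108), the B lymphocyte score (0.193) or a term for lymphocyte-rich libraries (0.153), edgeR adjusted p in parentheses. These settings called 5.44%, 0.0311%, 8.08% and 6.45% of all genes, in that order. Without D316A-Tg HFD library 7 the count of enzymes called was 7, where 10.9% of all genes were called. Skeletal muscle markers moved with this contrast, 14 of 16 tested called with a higher D316A effect on HFD and a median log2 difference of 9.64, while B lymphocyte markers counted 0 of 10 by edgeR, with 0 at an unadjusted p below 0.05. The part of the muscle markers was not tested apart from the covariate fit, in which 0.0311% of all genes were called. On HFD the muscle score hardly overlapped between the genotypes, so that fit cannot separate muscle from genotype there.

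The other genes of the cycle were tested in the same way. Of 15 other mitochondrial enzymes 8 had a lower D316A effect on HFD and 0 a higher one, among them the pyruvate dehydrogenase subunits Dlat (-1.39), Pdhx (-1.14) and Pdha1 (-1.21) and the shared subunit Dld (-1.12), all as log2 differences of effects. Cytosolic enzymes counted 4 lower and 1 higher of 6, with Me1 at -2.47, and carriers 5 lower and 2 higher of 10, with Slc25a1 at -2.40 and Mpc2 at -1.67. General mitochondrial genes counted 6 lower and 0 higher of 12. Whether these lists differ from the 9 enzymes was not tested.

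Between the chow and HFD cohorts, diet, age, base-calling software and count table change together and cannot be told apart. In WT-Tg fat Idh3a alone was called, 1.97-fold higher on HFD (log2 difference 0.98 ± 0.22, edgeR adjusted p = 0.000654), and 0 enzymes were lower. Of 16072 genes tested, 25.9% were called higher and 34.5% lower on HFD. Every HFD library, from 450.3 CPM, exceeded every chow library, up to 398 CPM, as was the case for 17.7% of genes. The other enzymes had log2 differences between -0.31 for Idh3b and 0.26 for Cs. Between these groups 14 of 16 muscle markers and 7 of 10 T lymphocyte markers were lower on HFD and 5 of 10 macrophage markers were higher. Their part in the Idh3a value was not tested apart from the muscle and B lymphocyte covariates. Under these Idh3a was called, as were 57.1% and 54.3% of all genes in either direction.

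In D316A-Tg fat 6 of the 9 enzymes were lower on HFD and 0 higher, where 17.9% of genes were called higher and 19.3% lower. Idh3b fell by 0.93 on the log2 scale (edgeR adjusted p = 0.00178), from a mean of 523 ± 96.4 to 275 ± 122 CPM (SD, n = 6 each), with 5 of 6 HFD libraries below all chow libraries. Fh1 fell by 0.69, Suclg1 by 0.67, Idh3g by 0.66, Dlst by 0.64 and Cs by 0.63, while Mdh2 at -0.55 (edgeR adjusted p = 0.0565) and Ogdh at -0.36 were not called. Idh3a was not called, at 528.5 ± 115 CPM on chow and 508 ± 133 CPM on HFD (log2 difference -0.06 ± 0.22). The count was 3 without D316A-Tg HFD library 10 or 11, where 32.4% and 35.5% of all genes were called. Of muscle markers 14 of 16 were higher on HFD, with a median log2 difference of 4.71, and of brown and beige markers 3 of 8 were lower, with a median of -1.09. With the muscle score as a covariate 6 enzymes were called, as were 26.8% of all genes in either direction. The part of the brown and beige markers was not tested. The cohort comparisons of both genotypes share the spread estimated from all 24 libraries.

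Of the other mitochondrial enzymes, 2 of 15 were higher and 0 lower on HFD in WT-Tg, namely Dld with a log2 difference of 0.68 and Dlat, the E2 subunit of pyruvate dehydrogenase, with 0.59. In D316A-Tg 1 was higher and 11 were lower, Pdha1 most surely, from 1392 to 474 CPM (log2 difference -1.56). The gene that was higher, Ogdhl, lay at 1.51 CPM or less in mean level. Of 6 cytosolic enzymes, 2 were higher and 1 lower in WT-Tg fat and 1 was higher and 4 lower in D316A-Tg, with Acly, which splits exported citrate, the lower one in WT-Tg at 0.288-fold. Carriers and transaminases counted 4 higher and 2 lower of 10 in WT-Tg, and 2 and 2 in D316A-Tg. General mitochondrial genes counted 7 higher and 2 lower of 12, and 3 and 4.

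The shares of single enzymes within the set differed between the cohorts, which are also separate count tables. Whether both tables were counted alike is not known, and in WT-Tg fat other mitochondrial genes differed as much or more between them, Phb by 3.48-fold, Tomm20 by 2.66-fold and Vdac3 by 2.61-fold, all higher on HFD. Taken as a share of the summed CPM of the 9 enzymes, Idh3a made up 7.97% to 10.7% in WT-Tg fat and 9.75% to 11.5% in D316A-Tg fat on chow, against 15.8% to 18.1% and 13.7% to 16.05% on HFD. Idh3b moved the other way, from 8.93% to 10.8% and 9.995% to 11.7% on chow to 6.98% to 7.47% and 6.84% to 9.29% on HFD. Thus the HFD and chow libraries did not overlap for Idh3a within either genotype. These shares and the ratios that follow were chosen after their values were seen and are given without a test.

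**Figure D5:**
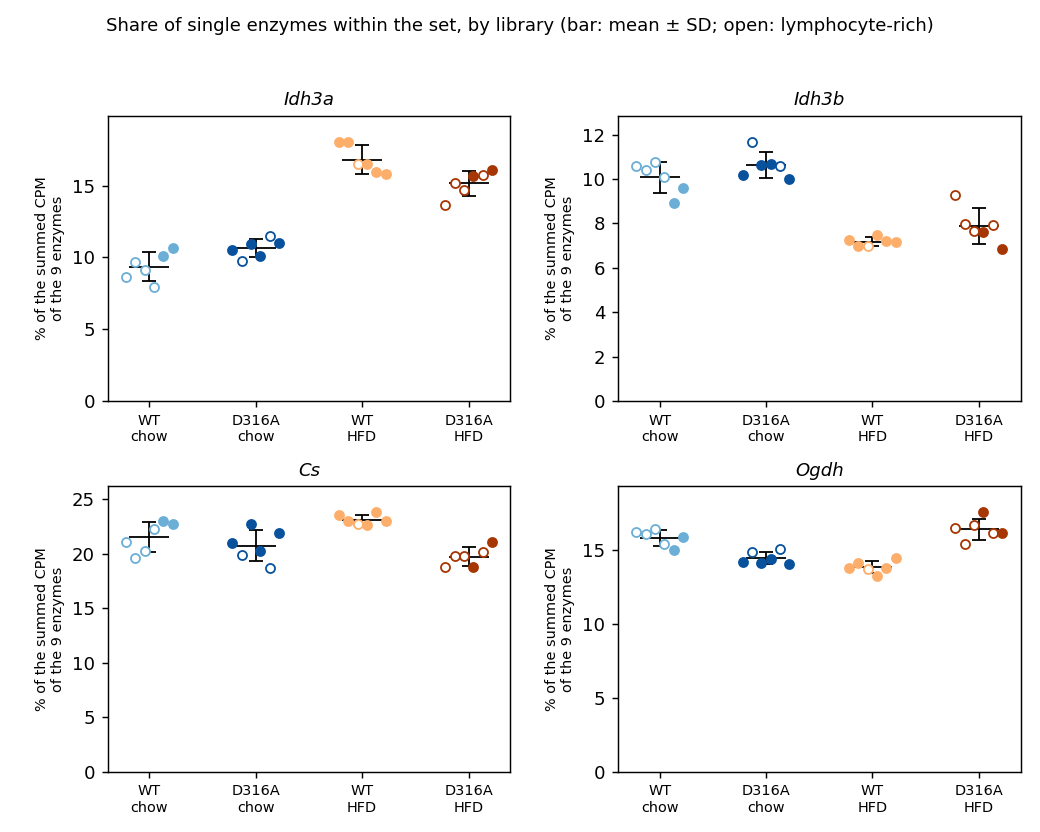
Share of Idh3a, Idh3b, Cs and Ogdh in the summed CPM of the 9 enzymes (y axes, percent, from 0) in each library of the 4 groups (x axis), open points being lymphocyte-rich libraries and bars the mean ± SD. Idh3a is 15.8% or more in every WT-Tg HFD library and 11.5% or less in every chow library.

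Within isocitrate dehydrogenase, the CPM ratio of Idh3a to Idh3b was 0.936 ± 0.150 in WT-Tg fat and 1.005 ± 0.100 in D316A-Tg on chow, and 2.34 ± 0.167 and 1.95 ± 0.283 on HFD (SD, n = 6 each). The ratio of the partner subunits, Idh3g to Idh3b, differed less between the cohorts, and without overlap, at 0.761 to 0.897 in the chow libraries and 0.922 to 1.05 in the HFD libraries. The ratio of Ogdh to Cs separated the genotypes on HFD, from 0.578 to 0.628 in WT-Tg fat and from 0.765 to 0.933 in D316A-Tg, and it overlapped on chow (0.739 ± 0.069 and 0.700 ± 0.069). Dlst to Ogdh also separated them on HFD, at 0.588 to 0.636 in WT-Tg fat and 0.482 to 0.576 in D316A-Tg. How often other gene pairs separate the genotypes was not tested. CPM ratios of genes of different length are read between libraries only.

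Across libraries the 9 mRNAs rose and fell together. With each gene centred on the mean of its group, the 36 pairs had a Pearson r of 0.851 to 0.987 over 24 libraries, median 0.951, and 0.806 to 0.985 without the 2 libraries farthest from the middle, D316A-Tg HFD 7 and WT-Tg chow 4. All pairs share these libraries, their scaling and their cell make-up. Of 11592 genes ranked with a mean of at least 5 CPM, those most like the mean of the 9 were Cyc1 (r = 0.992), Ndufv1 (r = 0.990), Uqcrfs1 (r = 0.989), Ndufa10 (r = 0.985) and Uqcrc1 (r = 0.982). Cyc1, Uqcrfs1 and Uqcrc1 encode parts of respiratory complex III and Ndufv1 and Ndufa10 parts of complex I. Leaving out the same 2 libraries gave r of 0.987 for Cyc1 and 0.976 for Ndufa10.

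By single enzyme, the most similar gene outside the set was Atp5a1 for Cs (r = 0.985), Dld for Idh3a (0.967), Uqcrc1 for Idh3b (0.984), Acadvl for Idh3g (0.986), Ndufv1 for Ogdh (0.986) and for Fh1 (0.988), Cyc1 for Dlst (0.988), Lace1 for Suclg1 (0.958) and Atp5b for Mdh2 (0.987), each over 24 libraries. Atp5a1 and Atp5b are subunits of ATP synthase and Acadvl is a dehydrogenase of fatty acid oxidation.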

How the data were processed

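Counts per gene, deposited by the authors as whole numbers in a chow and an HFD table, were used as they stand. RNA was extracted with Trizol and columns after removal of the lymph node, and libraries were TruSeq stranded mRNA, per the labels' protocols. The submitters' processing notes name STAR 2.4.1, bcl2fastq, FastQC, DESeq2 and mm10. No source used here gives the counting tool, annotation or strand setting. Tables were joined by gene identifier, and positions come from GENCODE M21 (GRCm38). Of the 9 genes only Idh3b overlaps another gene's exons (Nop56, 0.146% of exon length). Genes were tested with edgeR 4.0.16 in R 4.3.3 (quasi-likelihood, robust, TMM, filterByExpr), within each diet for genotype and over 24 libraries otherwise. CPM uses TMM over 24 libraries, log2 CPM a prior count of 2. Totals were 13254536 to 17766546 counts on chow and 16373731 to 22748132 on HFD. Library spread, rather than counting error, limits precision at these levels. No replicate pair agreed within sampling noise (lowest chi-square per degree of freedom 13.5). Alternatives included RLE and upper-quartile scaling, DESeq2 1.42.0, limma 3.58.1 voom, other filters, marker scores as covariates and leaving out each library. All 9 enzymes, up to 4 genes per list by adjusted p and the most similar genes are named. Marker lists covered adipocytes, brown and beige fat, muscle, B and T lymphocytes, macrophages, endothelium and mammary epithelium. The enzymes and lists were chosen with earlier results of these data known. The scripts' tests were tried on simulated data.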

Additional observations from a re-analysis of the deposited data

Results flagged for a closer look

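A few libraries stood far from the rest of their group. In WT-Tg on HFD, library 4 was the high one for Cs (896.9 CPM), Idh3b (296.4 CPM), Idh3g (305.1 CPM), Dlst (331.2 CPM), Fh1 (214.7 CPM) and Mdh2 (533.9 CPM). Its gap to the next library was over 0.625 of the group's whole range, Dixon's 95% limit for 6 libraries. In D316A-Tg on HFD, library 7 was the high one for Idh3b (511.3 CPM), Idh3g (471.6 CPM) and Fh1 (310.0 CPM). Of 40 sets of 6 libraries tested, 9 were past the limit, where chance gives about 1 in 20, and the enzymes of a library are not independent of each other. WT-Tg HFD library 4 had the highest brown and beige marker sum of its group, 609.9 CPM, and D316A-Tg HFD library 7 the highest of all, 1827 CPM. Their part in these values was not tested.

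The D316A effect on Idh3a differed between the diet cohorts, by -1.04 on the log2 scale (HFD minus chow), by edgeR's test of the difference over all 24 libraries. The cohorts also differ in age, base-calling software and count table. The main fit called 12.9% of all genes. The Idh3a call was lost with no filter (5.44% of all genes called), the muscle score (0.0311%), the B lymphocyte score (8.08%) or a term for lymphocyte-rich libraries (6.45%). It was also lost in 4 of 24 fits without 1 library (8.4% to 9.0%).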

How the results depend on the processing

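The direction of each enzyme's chow difference held under all 13 alternatives and 12 left-out libraries. The count of enzymes called on chow was 6 in all libraries (8.52% of all genes called), 3 with no filter (2.13%) and 0 with the muscle score (0.859%). It was 9 with DESeq2, voom, the B lymphocyte or adipocyte score, 1 fit of 24 libraries or either lymphocyte-rich setting (15.3% to 71.0%). Without single libraries it was 0 to 9 (0.901% to 21.9% of genes). On HFD it was 0 throughout (0.0% to 29.7% of genes). For the difference of effects, 1 was called in all libraries (12.9% of all genes). The count was 2 with RLE (13.5%), without the robust step (under 13.5%), with the adipocyte score (20.9%) or at a mean count of 50 or more (16.9%). It was 3 with DESeq2 (19.1%), 9 with voom (64.2%) and 8 without lymphocyte-rich libraries (9.39%). It was 0 with no filter (5.44%), the muscle score (0.0311%), the B lymphocyte score (8.08%) or a term for lymphocyte-rich libraries (6.45%). Leaving out single libraries gave 0 to 7 (8.4% to 26.5%). HFD against chow in WT-Tg fat gave 2 with voom (78.4% of genes) and without lymphocyte-rich libraries (50.5%). There it gave 1 whichever single library was left out (54.2% to 63.4%). In D316A-Tg it gave 9 without lymphocyte-rich libraries (52.3%) and 3 to 8 without single libraries (32.4% to 38.5%). The settings on lymphocyte-rich libraries were added after the data were seen. The cause of these changes was not tested.

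The library numbers recur across diets, but the deviations of same-numbered libraries correlated at -0.510 to 0.674 and only 4 of 12 correlated best with their own number, so they were not taken as pairs. The replicate block gave 1 call for the difference of effects (16.6% of all genes), 1 in WT-Tg fat (59.2%) and 6 in D316A-Tg (35.2%). It gave Ogdh at 0.0081 (HFD minus chow) in WT-Tg. No block can be fitted within a diet.

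Of 1449 enzyme values recomputed, 57 changed sign, none of them called. D316A minus WT on HFD, with the muscle score, gave -0.46 for Idh3b, -0.33 for Idh3g, -0.19 for Ogdh, -0.24 for Dlst, -0.43 for Suclg1, -0.29 for Fh1 and -0.31 for Mdh2. That score hardly overlapped between the genotypes on HFD, and 0.0% of all genes were called in the fit. The B lymphocyte score gave -0.025 for Fh1 and -0.0094 for Mdh2, the lymphocyte-rich term -0.0068 for Dlst, -0.016 for Fh1 and -0.017 for Mdh2. Without lymphocyte-rich libraries it was -0.24 for Idh3b and Idh3g, -0.161 for Dlst, -0.17 for Suclg1, -0.20 for Fh1 and -0.20 for Mdh2. Leaving out single libraries gave -0.21 to 0.0056 for Idh3a, -0.004 to 0.35 for Idh3b, -0.0059 to 0.21 for Dlst, -0.013 to 0.26 for Fh1 and -0.10 to 0.17 for Mdh2. HFD minus chow in WT-Tg gave Ogdh 0.0016 with RLE, 0.0017 with DESeq2, 0.083 with voom, 0.042 with no filter and 0.051 with the muscle score; Dlst 0.0039 with voom and 0.017 with no filter; Suclg1 -0.0056 with upper-quartile scaling. The B lymphocyte score gave -0.026 for Suclg1, -0.074 for Fh1 and -0.043 for Mdh2, the adipocyte score -0.098, -0.13 and -0.079, the lymphocyte-rich term -0.012 for Fh1. Without lymphocyte-rich libraries it was -0.12 for Cs, -0.25 for Suclg1, -0.25 for Fh1 and -0.164 for Mdh2. Leaving out single libraries gave -0.13 to 0.076 for Ogdh, -0.14 to 0.012 for Dlst, -0.067 to 0.135 for Suclg1 and -0.052 to 0.15 for Fh1. In D316A-Tg, Idh3a was 0.13 with the B lymphocyte score, 0.079 with the lymphocyte-rich term and -0.20 to 0.007 without single libraries.

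The libraries hold enough counts for each enzyme that the spread between libraries sets the precision. Cell make-up differed between libraries of a group, and cohort, age, diet and count table cannot be told apart.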

Other observations

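Markers of further cell types were compared on chow and on HFD, D316A-Tg against WT-Tg. T lymphocyte markers counted 0 called of 10 by edgeR on both diets, with 0 and 2 at an unadjusted p below 0.05 and median log2 differences of -1.13 and 1.92. Macrophage markers counted 0 of 10 on chow, with 4 at an unadjusted p below 0.05 by edgeR, and 3 lower of 10 on HFD. Endothelial markers counted 1 lower of 7 on chow and 3 lower of 7 on HFD, with median log2 differences of -0.74 on both. Mammary epithelium markers counted 0 of 3 tested on both by edgeR, with 0 and 1 at an unadjusted p below 0.05, and summed to at most 53.3 CPM.

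The ratios of the beta subunits that pair with Suclg1 are read between groups only, since CPM is not per length. The CPM ratio of Suclg2, which makes the GTP-forming enzyme, to Sucla2, which makes the ATP-forming enzyme, was 0.225 ± 0.040 in WT-Tg fat and 0.373 ± 0.109 in D316A-Tg on HFD, and 0.336 ± 0.071 and 0.269 ± 0.048 on chow (SD, n = 6 each). The ranges overlapped on both diets. Suclg1 to Sucla2 was 0.815 ± 0.076 and 0.896 ± 0.098 on chow, and 0.681 ± 0.148 and 0.923 ± 0.218 on HFD. These ratios were chosen after their values were seen.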
